A study of Homo sapiens with 12 samples.

Results

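Of 59385 gene names in the table of read counts, 63 carry the names VPS or SNX followed by a number, 33 of them VPS genes (vacuolar protein sorting) and 30 SNX genes (sorting nexins). This rule on names was chosen with earlier results of these data known. The members were followed across both RNA fractions of 2 stable lines made from HEK293T cells. Those cells derive from human embryonic kidney and carry the large T antigen. In the control line the shRNA had no target (shCtrl), and in the knockdown line it was directed at the RNA-binding protein PRRC2B (shPRRC2B). Both shRNAs were switched on with doxycycline (Dox) for 36 h. Each line was grown from a single clone, so shRNA and clone cannot be told apart. From each line, total RNA and polysome-associated RNA were sequenced as 3 biological replicates, which gave 4 groups of 3 and 12 libraries, and both lines received Dox. The polysome-associated RNA was pooled from fractions 6 to 10 of a sucrose gradient, where mRNAs with several ribosomes sediment, after cycloheximide had been added to hold ribosomes in place. The ratio of polysome-associated to total RNA stands for translation efficiency (TE), and the comparison asks how that ratio differed between the lines. No source used here says that the replicates were grown apart, so the p-values measure the spread between these libraries.

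The VPS genes were named after yeast mutants that missorted vacuolar proteins, and most of their products act on endosomes. Retromer, a trimer of VPS35, VPS29 and a VPS26 protein, retrieves receptors from endosomes together with sorting nexins, which bind endosomal phosphoinositides through a PX domain and, in many of them, curve membranes through a BAR domain. The ESCRT complexes fold receptors inward into multivesicular bodies and the VPS4 ATPases take them apart again, HOPS and CORVET tether endosomes and lysosomes before fusion, GARP tethers vesicles that return to the Golgi, and the VPS13 proteins are long bridges that carry lipids between membranes.

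The libraries held between 9855734 and 20837542 counts, and the members took 0.315% to 0.356% of the counts in total RNA and 0.198% to 0.239% in polysome RNA. Levels are given as CPM, the counts scaled to library size by the TMM method over all libraries, and ± marks the standard error (SE) of a fitted log2 change. PRRC2B itself held 272, 313 and 258 CPM in the shCtrl libraries of total RNA and 97.9, 103 and 100.5 CPM in the shPRRC2B libraries, a log2 change of -1.49 ± 0.17 (SE, adjusted p = 4.25e-06 by edgeR). All 6 markers listed for HEK293 cells were detected in every library, but their summed level was 593 to 639 CPM in shCtrl total RNA and 532 to 569 CPM in shPRRC2B total RNA. Behind these sums, NEFM was 264 to 309 CPM in shCtrl and 94.6 to 99.6 CPM in shPRRC2B total RNA and KRT8 was 85.4 to 95.9 and 20.4 to 21.0 CPM, whereas VIM was 119 to 128 and 222 to 248 CPM and LIN28B was 65.2 to 68.2 and 134 to 147 CPM, so that single markers went in opposite directions. The 6 markers of other cells summed to at most 1.63 CPM in any library, HBB was at 0 in all of them, and DCN was above 0.5 CPM only in the shCtrl polysome libraries. The part of these differences between the lines in the results was not tested. Replicates spread more in polysome RNA, where the chi-square per degree of freedom between libraries of 1 group was 13.3 to 70.2, than in total RNA, where it was 3.19 to 8.27. In RNA from bulk cultures, fewer cells with a transcript and less of it per cell cannot be told apart.

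Of the 63 members, 60 had enough counts to be tested among 18166 genes. A gene was called TE-down or TE-up at an adjusted p under 0.05 (edgeR's quasi-likelihood test, Benjamini-Hochberg over all genes tested) and a log2 change past 0.5 in size. Among the members tested, 15 were TE-down, 1 was TE-up and 44 were not called. TE-down members made up 25.0% of those tested, against 16.4% of all genes tested. The paper reports cytosolic transport as enriched among its TE-down genes from these libraries, so this share is not independent of that result. TE-up members made up 1.67%, against 10.7% of all genes tested. The median log2 TE change was -0.23 over the members and -0.03 over all genes tested, and 40 of the 60 members had a value below 0. The TE-down members came from 7 of the 11 role groups, with 4 in HOPS and CORVET, 3 in the VPS13 family, 3 among the retromer sorting nexins and 2 in the retromer trimer. Leave-one-out fits, each without 1 library, called 12 to 18 members TE-down, and the number of TE-up members was 0 without shCtrl total replicate 2 and 2 without shCtrl polysome replicate 2.

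**Figure D1:**
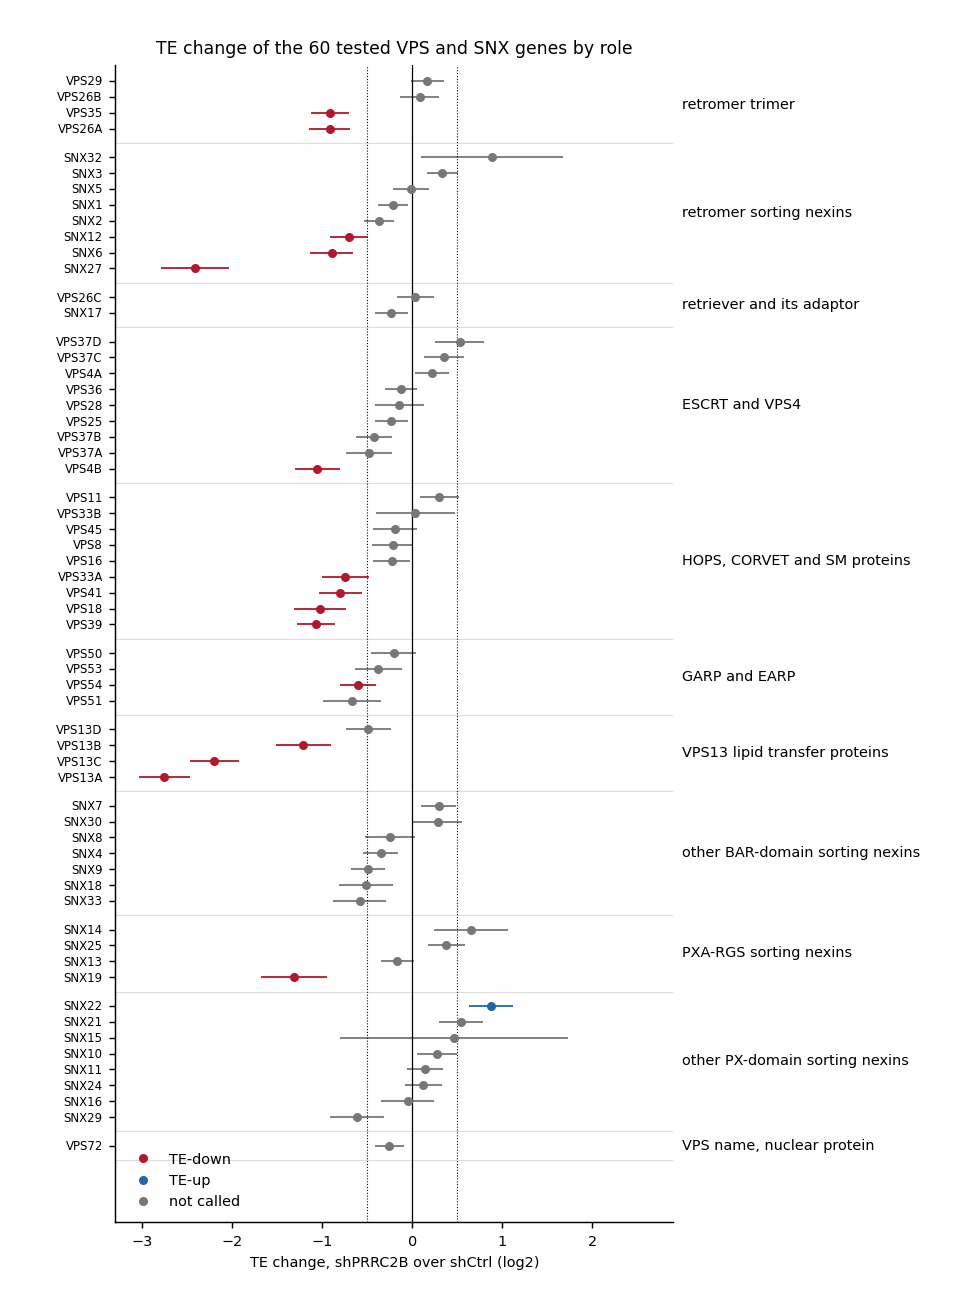
Log2 TE change of the 60 tested members (points) with the standard error of the edgeR fit (bars), grouped by role; the dotted lines mark -0.5 and 0.5. The 15 TE-down members lie between -2.76 (VPS13A) and -0.61 (VPS54), and SNX22 (0.87) is the TE-up member.

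Within the retromer trimer, VPS26A and VPS35 were TE-down (50.0%, against 16.4% of all genes tested) and VPS26B and VPS29 were not called. VPS35 (ENSG00000069329.19, chromosome 16, 46656132 to 46689518, minus strand of GRCh38) encodes the scaffold that holds the other subunits. Its total RNA was 107, 108 and 116 CPM in shCtrl cells and 152, 160.0 and 153 CPM in shPRRC2B cells, and its polysome RNA was 54.9, 47.1 and 54.7 CPM and 50.6, 30.9 and 35.1 CPM. All shPRRC2B libraries of total RNA lay above the shCtrl libraries, while the polysome libraries overlapped. The TE change of VPS35 was -0.92 ± 0.21 (SE, adjusted p = 0.00419 by edgeR). Neither fraction was past the thresholds alone, with 0.49 in total RNA and -0.42 in polysome RNA. Longer transcripts had lower TE changes in general, and after that trend was taken out of every library the value for VPS35 was -0.40 (adjusted p = 0.147, edgeR) and no longer called.

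VPS26A (ENSG00000122958.15, chromosome 10, 69123512 to 69174412, plus strand) encodes an arrestin-like subunit that sits at the membrane end of the complex. In total RNA it held 47.1, 44.3 and 49.8 CPM in shCtrl cells and 76.4, 80.1 and 70.7 CPM in shPRRC2B cells. In polysome RNA the values were 36.5, 48.6 and 54.2 CPM in shCtrl cells and 48.5, 38 and 31.9 CPM in shPRRC2B cells. The total RNA groups were apart and the polysome groups overlapped. Total RNA of VPS26A rose by 0.69 ± 0.16 (SE, adjusted p = 0.00277 by edgeR), polysome RNA changed by -0.23, and the TE change was -0.92 ± 0.23 (SE, adjusted p = 0.00623 by edgeR).

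The alternative subunit VPS26B held 56.3, 54.4 and 49.8 CPM in shCtrl and 62.7, 58.2 and 59.9 CPM in shPRRC2B total RNA. The polysome libraries held 36.8, 41.2 and 35.4 CPM and 38.7, 58.7 and 37.8 CPM, with 1 shPRRC2B library above the rest. Its TE change was 0.08 ± 0.21 (SE, adjusted p = 0.823 by edgeR), and its sign turned in the fits that left out shPRRC2B polysome replicate 2 (-0.18) or shCtrl polysome replicate 3 (-0.02). VPS29, the small subunit that binds regulators of retromer, held 167, 228 and 195 CPM in the shCtrl polysome libraries and 249, 213 and 239 CPM in the shPRRC2B polysome libraries. Its total RNA was 43.2, 44.6 and 47.4 CPM and 46.9, 52.7 and 43.8 CPM, so that both fractions overlapped between the lines. VPS29 had a TE change of 0.16 ± 0.18 (SE, adjusted p = 0.547 by edgeR). A test of one subunit's TE change against another's was not made.

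**Figure D2:**
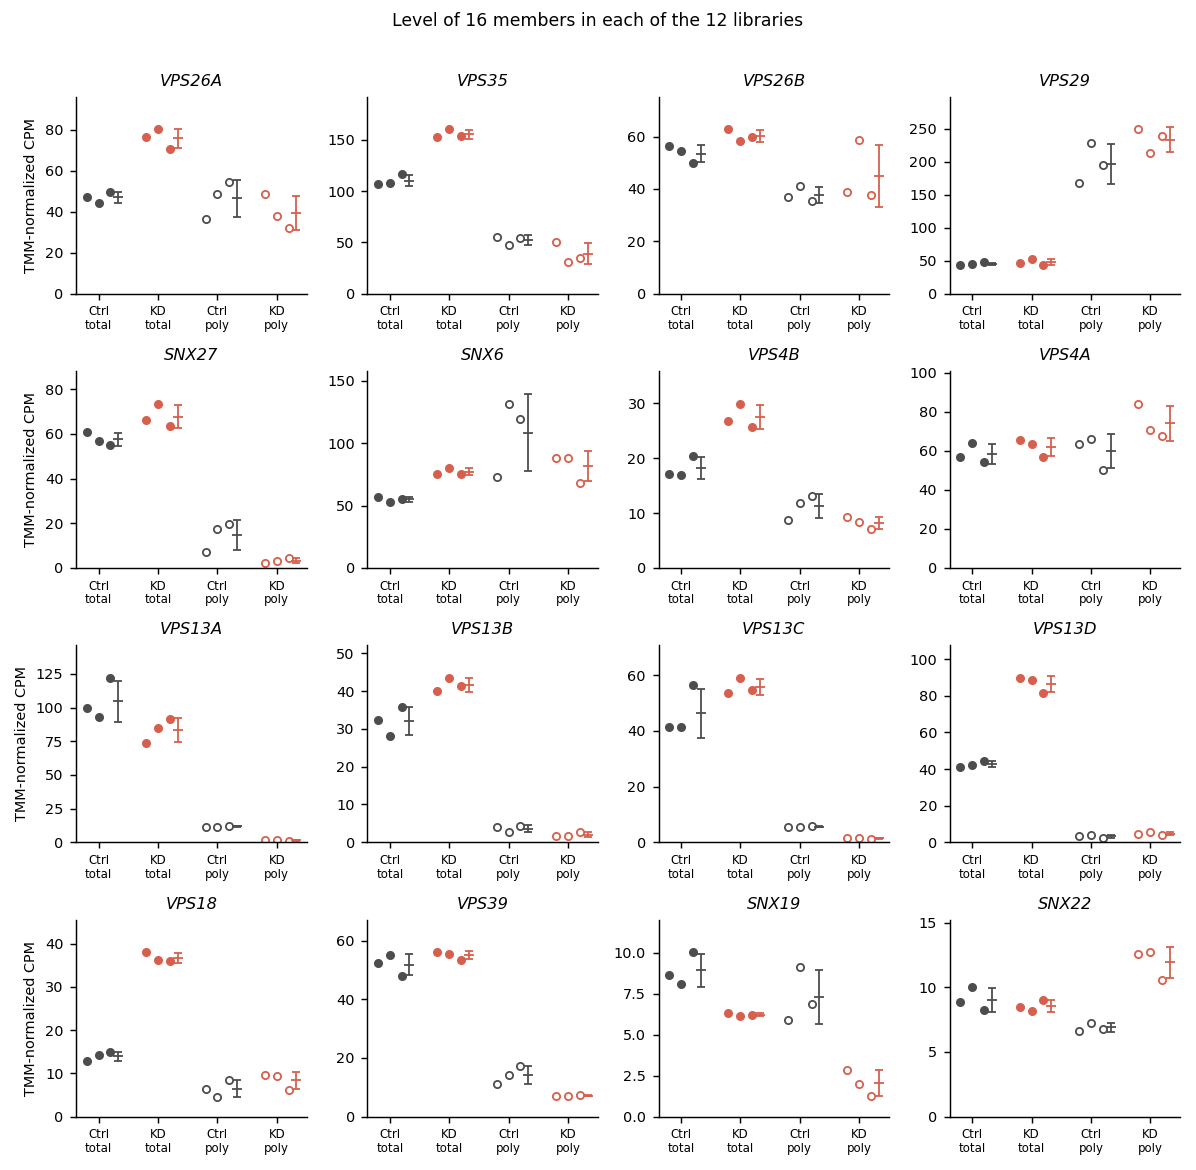
TMM-normalized CPM of 16 members in each library, in total RNA (filled points) and polysome RNA (open points) of shCtrl cells (Ctrl, grey) and shPRRC2B cells (KD, red), with the mean and SD of the 3 libraries beside them. VPS13A polysome RNA is 11.3 to 12.3 CPM in shCtrl cells and 0.761 to 1.72 CPM in shPRRC2B cells, while VPS29 overlaps between the lines in both fractions.

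Among the 8 sorting nexins that work with retromer or carry retromer cargo, SNX27, SNX6 and SNX12 were TE-down (37.5%, against 16.4% of all genes tested). SNX27 (ENSG00000143376.14, chromosome 1, 151612006 to 151699091, plus strand) joins a PDZ domain, which grips the tails of receptors and channels, to a PX domain. Its total RNA was 60.8, 57 and 55.1 CPM in shCtrl cells and 66.2, 73.5 and 63.4 CPM in shPRRC2B cells. In polysome RNA it held 7.12, 17.6 and 19.7 CPM in shCtrl cells and 2.32, 3.06 and 4.38 CPM in shPRRC2B cells. Every shPRRC2B polysome library lay below every shCtrl polysome library, and shCtrl polysome replicate 1 was the lowest of its group. SNX27 fell by 2.18 on the log2 scale in polysome RNA (standard error 0.31, adjusted p = 2.35e-05, edgeR), and its TE change was -2.41 ± 0.38 (SE, adjusted p = 0.000264 by edgeR). The TE change stayed between -2.80 and -2.20 with each library left out in turn.

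SNX5 and SNX6 are close relatives that pair with SNX1 or SNX2 through their BAR domains to form the tubulating coat. SNX6 held 56.9, 52.7 and 55.1 CPM in shCtrl and 75.6, 80.4 and 75.3 CPM in shPRRC2B total RNA, without overlap. Its polysome RNA was 73.2, 132 and 119.7 CPM and 88.2, 88.5 and 67.9 CPM, where the groups overlapped. The TE change of SNX6 was -0.90 ± 0.24 (SE, adjusted p = 0.0109 by edgeR). SNX5, at 177, 174 and 172 CPM in shCtrl and 164, 184 and 189.9 CPM in shPRRC2B total RNA, was the more abundant of both. In the polysome libraries it was 331, 438 and 519 CPM and 443, 408 and 460.3 CPM, and its TE change was -0.01 ± 0.20 (SE, adjusted p = 0.986 by edgeR), a value close to 0 that turned positive without shCtrl polysome replicate 3 (0.09), shPRRC2B polysome replicate 2 (0.0074) or shPRRC2B total replicate 3 (0.02). The partners SNX1 and SNX2 had TE changes of -0.22 and -0.37, with total RNA values of 0.33 and 0.34. SNX32, a further relative of SNX5 and SNX6, was scarce, with 1.96, 1.53 and 2.28 CPM in shCtrl total RNA and 0.700, 0.894 and 1.27 CPM in shPRRC2B total RNA. Its TE change of 0.88 ± 0.78 (SE, adjusted p = 0.432 by edgeR) carried the widest error of the group, and leaving out single libraries moved it between 0.45 and 1.73.

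SNX3 and SNX12 consist of little more than a PX domain, and SNX3 brings retromer to endosomes by binding its lipid there. SNX12 held 44, 50.4 and 41.9 CPM in shCtrl and 62.1, 58.2 and 53.7 CPM in shPRRC2B total RNA. Polysome RNA was 51.8, 61.3 and 43.4 CPM and 43, 45.9 and 33.6 CPM, which overlapped only at the edges. SNX12 had a TE change of -0.70 ± 0.21 (SE, adjusted p = 0.0201 by edgeR). It was no longer called without shCtrl total replicate 1 (adjusted p = 0.0543, edgeR), shCtrl total replicate 3 (adjusted p = 0.0545, edgeR) or shPRRC2B total replicate 1 (adjusted p = 0.0556, edgeR). SNX3 behaved otherwise in polysome RNA, at 305, 302 and 262 CPM in shCtrl cells and 468, 399 and 399.9 CPM in shPRRC2B cells, with every shPRRC2B library above. It rose there by 0.55 ± 0.12 (SE, adjusted p = 0.00136 by edgeR), and its TE change was 0.33 ± 0.17 (SE, adjusted p = 0.16 by edgeR). Its polysome value was under the threshold of 0.5 without shCtrl polysome replicate 1 (0.4998), 2 (0.48) or 3 (0.38) or shPRRC2B polysome replicate 1 (0.35), and was 0.22 with the length trend removed.

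The sites of PRRC2B inside members are shown because they are the stretches of these mRNAs listed as crosslinked to the protein. In the lists of PAR-CLIP sites, which come from cells that overexpressed tagged PRRC2B and not from these libraries, 3 members carried a site 100 nt wide inside the gene. The central 30 bases of each are printed from GRCh38 on the strand of the gene, 5′ to 3′, with C and T in capitals. The part named is that of these 30 bases in the canonical transcript. The list of sites labels the SNX12 site as both coding sequence and 3′ UTR.

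SNX6, full-length PRRC2B, chr14:34562789-34562818, minus strand, 3′ UTR in exon 14: gTaTTCCTTaTggCTgCCaCTCTTaTTTaC
SNX12, P2 fragment of PRRC2B, chrX:71061077-71061106, minus strand, coding sequence in exon 4: CCCaCTggCTCagaaTgaaCgCTgCCTaCa
VPS37B, full-length PRRC2B, chr12:122866014-122866043, minus strand, 3′ UTR in exon 4: aCCCTTagCCaaTaTCCTCTgCCCCTgggT

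Of the 30 bases, 21 were C or T in SNX6, 20 in VPS37B and 16 in SNX12. Over the whole 100 nt of each site, 61 were C or T in SNX6, 52 in VPS37B and 50 in SNX12. SNX6 and SNX12 were TE-down. VPS37B, a subunit of ESCRT-I, had a TE change of -0.43 and was not called. Each of the 3 sites stands in 1 of both lists, and sites beyond the lists as read here were not analysed here. The paper took as PRRC2B-bound the mRNAs with sites that overlapped between both lists, which none of these 3 sites does as read here. A further site of full-length PRRC2B, named for 1 member, did not lie inside that gene and was left out. The TE-down share of all genes with a site is not given here.

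Both VPS4 genes encode the ATPase that disassembles ESCRT-III filaments, and VPS4B was TE-down while VPS4A was not called. VPS4B (ENSG00000119541.10, chromosome 18, 63389190 to 63422483, minus strand) held 17.1, 16.9 and 20.5 CPM in shCtrl and 26.9, 29.9 and 25.7 CPM in shPRRC2B total RNA. Its polysome RNA was 8.80, 11.8 and 13.2 CPM in shCtrl cells and 9.29, 8.31 and 7.04 CPM in shPRRC2B cells. The total RNA groups did not overlap, and the polysome groups met at their edges. VPS4B rose by 0.61 ± 0.16 (SE, adjusted p = 0.00854 by edgeR) in total RNA and its TE change was -1.06 ± 0.25 (SE, adjusted p = 0.00472 by edgeR). The total RNA call was lost without shCtrl total replicate 1, shCtrl total replicate 2 or shPRRC2B total replicate 2, with adjusted p (edgeR) of 0.0515, 0.0503 and 0.0535.

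VPS4A, the more abundant gene, held 56.5, 63.9 and 54 CPM in shCtrl and 65.6, 63.2 and 56.6 CPM in shPRRC2B total RNA. In polysome RNA it was 63.6, 66 and 50.1 CPM and 84, 70.5 and 67.4 CPM, and its TE change was 0.22 ± 0.19 (SE, adjusted p = 0.428 by edgeR). The other 7 ESCRT members with a VPS name were not called in TE. Among them, VPS25 and VPS36 are subunits of ESCRT-II and went apart in level. VPS25 rose by 0.65 ± 0.13 (SE, adjusted p = 0.00103 by edgeR) in total RNA, where it held 45.3, 47.4 and 43.7 CPM and 72.4, 71.9 and 70.5 CPM. VPS36 was 52.5, 49.4 and 55 CPM in shCtrl and 36.5, 37.5 and 36.8 CPM in shPRRC2B total RNA, and fell by 0.50 in total RNA (adjusted p = 0.0048, edgeR) and by 0.63 in polysome RNA (adjusted p = 0.00096, edgeR) on the log2 scale. The total RNA value of VPS36 sits at the threshold and was smaller in the fits that left out shCtrl total replicate 3 (-0.47) or replicate 1 (-0.49) or 3 (-0.495) of shPRRC2B total RNA.

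Of the 9 genes of HOPS, CORVET and their Sec1/Munc18 (SM) proteins, 4 were TE-down (44.4%, against 16.4% of all genes tested). They were VPS39, VPS18, VPS41 and VPS33A. VPS39 and VPS41 are the HOPS subunits that CORVET lacks, and VPS18 and VPS33A belong to the core that both tethers share. VPS39 (ENSG00000166887.16, chromosome 15, 42158701 to 42208307, minus strand) held 52.5, 55.2 and 48 CPM in shCtrl and 56.1, 55.6 and 53.6 CPM in shPRRC2B total RNA. The polysome libraries held 11.1, 14.1 and 17.2 CPM and 6.96, 7.16 and 7.23 CPM. Total RNA overlapped between the lines, and every shPRRC2B polysome library lay below the shCtrl libraries. The TE change of VPS39 was -1.07 ± 0.21 (SE, adjusted p = 0.00152 by edgeR), and it fell by 0.99 on the log2 scale in polysome RNA (adjusted p = 0.00013, edgeR).

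VPS18 showed the opposite source. Its total RNA was 12.8, 14.1 and 14.9 CPM in shCtrl cells and 38, 36.2 and 35.9 CPM in shPRRC2B cells, a rise of 1.40 ± 0.19 (SE, adjusted p = 2.76e-05 by edgeR). In polysome RNA it held 6.46, 4.56 and 8.43 CPM and 9.63, 9.46 and 6.09 CPM, which overlapped, and the polysome change was 0.38. Its TE change was -1.02 ± 0.29 (SE, adjusted p = 0.0141 by edgeR). No other member changed as much in total RNA. VPS41 held 15, 17.8 and 19.1 CPM in shCtrl and 13.4, 11.7 and 7.42 CPM in shPRRC2B polysome RNA, without overlap, and had a TE change of -0.80 ± 0.24 (SE, adjusted p = 0.021 by edgeR). The call of VPS41 was lost without shCtrl total replicate 2 (adjusted p = 0.0548, edgeR). VPS33A, at 16.7, 12.2 and 10.4 CPM and 10.9, 7.16 and 8.28 CPM in polysome RNA, had a TE change of -0.74 ± 0.26 (SE, adjusted p = 0.041 by edgeR). Its call held in only 3 of the 12 fits that left out a library: it was lost when any total RNA library was absent, and likewise for shCtrl polysome replicate 1 and for replicates 2 and 3 of shPRRC2B polysome RNA, with adjusted p (edgeR) from 0.0619 to 0.0981. With the length trend removed, VPS39 (-0.75) and VPS18 (-0.83) were still TE-down, and VPS41 (-0.37) and VPS33A (-0.46) were not. The other 5 genes of the group, with VPS8 of CORVET and the core subunits VPS11 and VPS16 among them, had TE changes from -0.23 to 0.30.

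GARP and its endosomal sister EARP share VPS51, VPS52 and VPS53, and differ by VPS54 in GARP and VPS50 in EARP. VPS54 was TE-down, with polysome RNA of 30.3, 27.1 and 25 CPM in shCtrl cells and 15.6, 20.3 and 20.5 CPM in shPRRC2B cells and no overlap. Its TE change was -0.61 ± 0.20 (SE, adjusted p = 0.0336 by edgeR), and its total RNA changed by 0.05. The call was lost without shCtrl total replicate 1, 2 or 3 or shPRRC2B total replicate 2 or 3, with adjusted p (edgeR) from 0.0532 to 0.103, and with the length trend removed (-0.29). VPS50, VPS51 and VPS53 had TE changes of -0.21, -0.67 and -0.38 and were not called. VPS53 rose by 0.60 ± 0.16 (SE, adjusted p = 0.00976 by edgeR) in total RNA, a call that was lost without shPRRC2B total replicate 2 (adjusted p = 0.0587, edgeR).

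The VPS13 family had the lowest median TE change of the role groups (-1.71), with 3 of 4 genes TE-down. All 4 have transcripts of more than 10000 nt, and of all genes tested in that length class 47.4% were TE-down. VPS13A (ENSG00000197969.14, chromosome 9, 77177445 to 77421537, plus strand), whose loss causes chorea-acanthocytosis, held 99.4, 92.9 and 122 CPM in shCtrl and 73.8, 84.5 and 91.8 CPM in shPRRC2B total RNA. Its polysome RNA was 11.6, 11.3 and 12.3 CPM in shCtrl cells and 1.72, 1.62 and 0.761 CPM in shPRRC2B cells, far apart. The polysome libraries of shPRRC2B cells rested on 20, 17 and 8 counts for VPS13A, against 124, 104 and 111 counts in shCtrl cells. VPS13A fell by 3.08 on the log2 scale in polysome RNA (standard error 0.23, adjusted p = 3.99e-08, edgeR), and its TE change of -2.76 ± 0.28 (SE, adjusted p = 1.11e-05 by edgeR) was the lowest of all members.

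VPS13C (ENSG00000129003.19, chromosome 15, 61852389 to 62060473, minus strand), which acts between the endoplasmic reticulum and late endosomes, held 41.3, 41.3 and 56.5 CPM in shCtrl and 53.8, 59 and 54.7 CPM in shPRRC2B total RNA. Polysome RNA was 5.53, 5.32 and 5.66 CPM and 1.63, 1.43 and 1.24 CPM, again without overlap. VPS13C had a TE change of -2.20 ± 0.27 (SE, adjusted p = 3.61e-05 by edgeR). VPS13B, a Golgi protein that is mutated in Cohen syndrome, held 4.03, 2.60 and 4.21 CPM in shCtrl and 1.63, 1.72 and 2.76 CPM in shPRRC2B polysome RNA. Those groups overlapped, its total RNA was 32.3, 28.2 and 35.7 CPM and 39.9, 43.4 and 41.4 CPM, and its TE change was -1.21 ± 0.30 (SE, adjusted p = 0.00699 by edgeR). With the length trend removed, VPS13A (-2.02) and VPS13C (-1.47) were still TE-down and VPS13B (-0.46) was not.

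VPS13D, which is needed for mitochondrial clearance, parted from the other three. Its total RNA was 41.3, 42.1 and 44.6 CPM in shCtrl cells and 89.7, 88.7 and 81.6 CPM in shPRRC2B cells, a rise of 1.02 ± 0.14 (SE, adjusted p = 3.22e-05 by edgeR). In polysome RNA it held 3.28, 3.91 and 2.33 CPM and 4.39, 5.54 and 3.90 CPM, a change of 0.53 whose call was lost in 11 of the 12 fits that left out a library (values from 0.26 to 0.60) and held without shCtrl polysome replicate 2. Its TE change was -0.49 ± 0.25 (SE, adjusted p = 0.161 by edgeR). Leaving out shCtrl polysome replicate 3 made VPS13D TE-down (-0.71, adjusted p = 0.0417, edgeR), and its value was 0.26 with the length trend removed. A test of VPS13D against the other VPS13 genes was not made.

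Outside these complexes, SNX19 was the only TE-down member and SNX22 the only TE-up member. SNX19, a membrane-anchored nexin of the PXA-RGS group, held 8.64, 8.11 and 10.0 CPM in shCtrl and 6.30, 6.15 and 6.21 CPM in shPRRC2B total RNA. Its polysome RNA was 5.90, 9.11 and 6.88 CPM and 2.84, 2.01 and 1.24 CPM, and both fractions were lower in every shPRRC2B library. The TE change of SNX19 was -1.32 ± 0.37 (SE, adjusted p = 0.0138 by edgeR), and -0.57 (adjusted p = 0.27, edgeR) with the length trend removed. SNX22 (ENSG00000157734.14, chromosome 15, 64151715 to 64157481, plus strand) lies 5624 bases after the end of SNX1 on the same strand and encodes a protein with a PX domain. It held 6.65, 7.27 and 6.77 CPM in shCtrl and 12.6, 12.7 and 10.6 CPM in shPRRC2B polysome RNA, without overlap, and 8.83, 10.0 and 8.22 CPM and 8.49, 8.16 and 9.05 CPM in total RNA, with overlap. Its TE change was 0.87 ± 0.25 (SE, adjusted p = 0.0153 by edgeR), with 1.02 after removal of the length trend, and the call was lost without shCtrl total replicate 2 (adjusted p = 0.0555, edgeR). None of the 7 other BAR-domain nexins was called in TE, with values from -0.59 (SNX33) to 0.29 (SNX7). Retriever, the relative of retromer, was represented by VPS26C (0.03) and by its cargo adaptor SNX17 (-0.23), neither of them called. VPS72, which carries a VPS name but encodes a nuclear chromatin protein, had a TE change of -0.26, and leaving it out changed neither count of TE calls.

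VPS13D was higher and VPS36 lower in both fractions, and the other members called were past the thresholds in 1 fraction. In total RNA, 9 members were higher in shPRRC2B cells (15.0%, against 14.9% of all genes tested) and 2 were lower (3.33%, against 14.1%). The higher members were VPS18, VPS13D, SNX18, VPS26A, SNX29, VPS25, VPS4B, VPS53 and SNX33, with log2 changes from 0.55 to 1.40, and the lower members were SNX10 (-0.54) and VPS36 (-0.50). In polysome RNA, 8 members were higher (13.3%, against 18.4%) and 11 were lower (18.3%, against 21.4%). These shares lay close to or below those of all genes tested. The higher members were SNX21, SNX22, SNX24, SNX7, SNX3, VPS13D, VPS37C and SNX25, from 0.51 to 0.98, and the lower ones lay between -3.08 (VPS13A) and -0.55 (VPS54).

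Several of these values lie near the threshold of 0.5. Every fit that left out a library called fewer than the 8 members higher in polysome RNA (3 to 7). SNX22, further from the threshold, was 0.793 in polysome RNA with all libraries and 0.644 to 0.788 in the left-out fits. The cause of this shift was not tested. In polysome RNA, the fits without replicate 3 of either line left 3 higher members, and those without shCtrl replicate 1 or shPRRC2B replicate 1 or 2 left 4 each, while 19 members were lower in the fit that lacked shPRRC2B polysome replicate 1. In total RNA, no member was called lower when shCtrl replicate 3 or shPRRC2B replicate 1 was absent, and 1 was when shPRRC2B replicate 2 or 3 was.

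For 9 of the 15 TE-down members, polysome RNA alone was past the thresholds (SNX19, SNX27, VPS13A, VPS13B, VPS13C, VPS33A, VPS39, VPS41 and VPS54), and for 3 it was total RNA alone (VPS18, VPS26A and VPS4B). In the other 3 (SNX12, SNX6 and VPS35), the log2 change was above 0 in total RNA and below 0 in polysome RNA, neither past the thresholds, and only the difference between both was. None of the 15 was past them in both fractions. SNX22 was TE-up through polysome RNA.

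**Figure D3:**
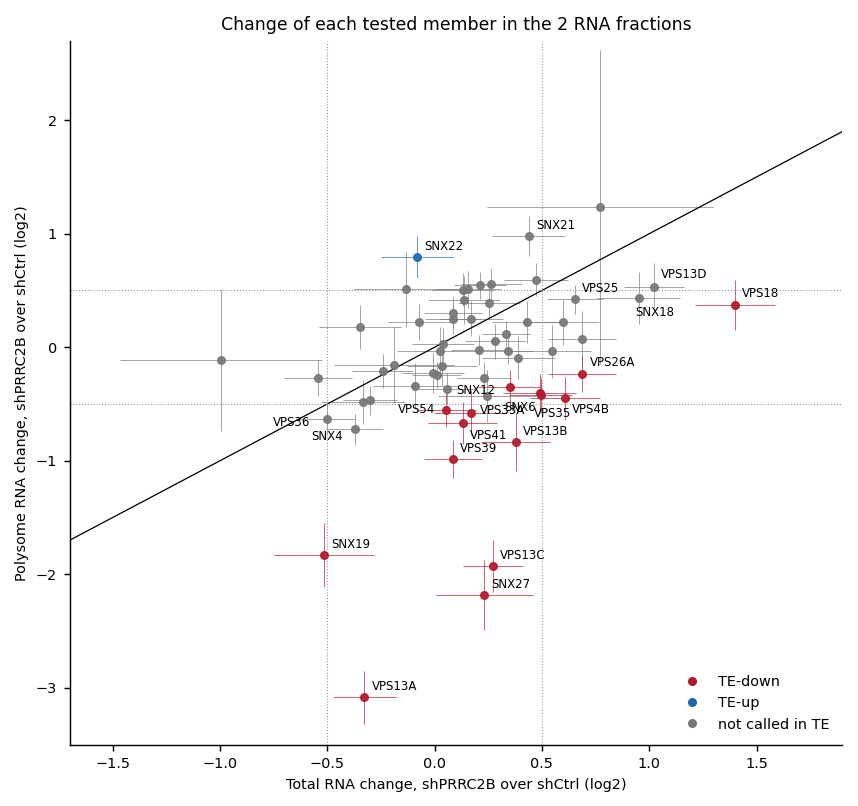
Log2 change in total RNA (horizontal) against log2 change in polysome RNA (vertical), shPRRC2B over shCtrl, for the 60 tested members, with standard errors; on the solid diagonal both changes are equal and the dotted lines mark -0.5 and 0.5. VPS13A, SNX27, VPS13C and SNX19 lie at the bottom, with polysome changes from -3.08 to -1.83, and VPS18 lies at the right with a total RNA change of 1.40.

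The members cover transcripts from 948 to 16357 nt (canonical transcripts of GENCODE 44), and their polysome-to-total ratio followed that length in both lines. Over the 60 members, Spearman's rho between transcript length and the log2 polysome-to-total ratio was -0.65 in shCtrl cells and -0.72 in shPRRC2B cells, and -0.54 between length and the TE change. Over the 15762 tested genes with a length, the same values were -0.56, -0.61 and -0.41. These are descriptions across genes of the same libraries, not tests. Short members led in shCtrl cells, with log2 ratios of 2.46 for VPS25, 2.24 for SNX7, 2.19 for SNX3 and 2.13 for VPS29. The lowest were VPS13D (-3.74), SNX15 (-3.56), VPS13A (-3.16), VPS13B (-3.14) and VPS13C (-3.07), and SNX15 had at most 0.111 CPM in the shCtrl polysome libraries.

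The TE-down members had a median transcript length of 4832 nt and the members not called one of 3082 nt. Of the 27 members with transcripts of 4000 nt or more, 11 were TE-down (40.7%), against 35.8% of all genes tested of that length. Among the 33 shorter members, 4 were TE-down (12.1%), against 8.62% of the shorter genes. Above 10000 nt the median TE change of all genes was -0.82, and of the 6 members of that length, VPS13A, VPS13B, VPS13C and SNX19 lay below it, whereas VPS53 (-0.38) and VPS13D (-0.49) lay above. Once every library had been corrected for length, 11 members were TE-down (18.3%, against 12.6% of all genes tested) and 2 were TE-up (3.33%, against 8.72%). Of the 15 TE-down members, 9 kept the call (VPS26A, SNX6, SNX12, SNX27, VPS4B, VPS18, VPS39, VPS13A and VPS13C), 6 lost it (VPS35, VPS33A, VPS41, VPS54, VPS13B and SNX19), and VPS25 (-0.78) and VPS72 (-0.69) gained it. SNX30 (0.88) joined SNX22 as TE-up.

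**Figure D4:**
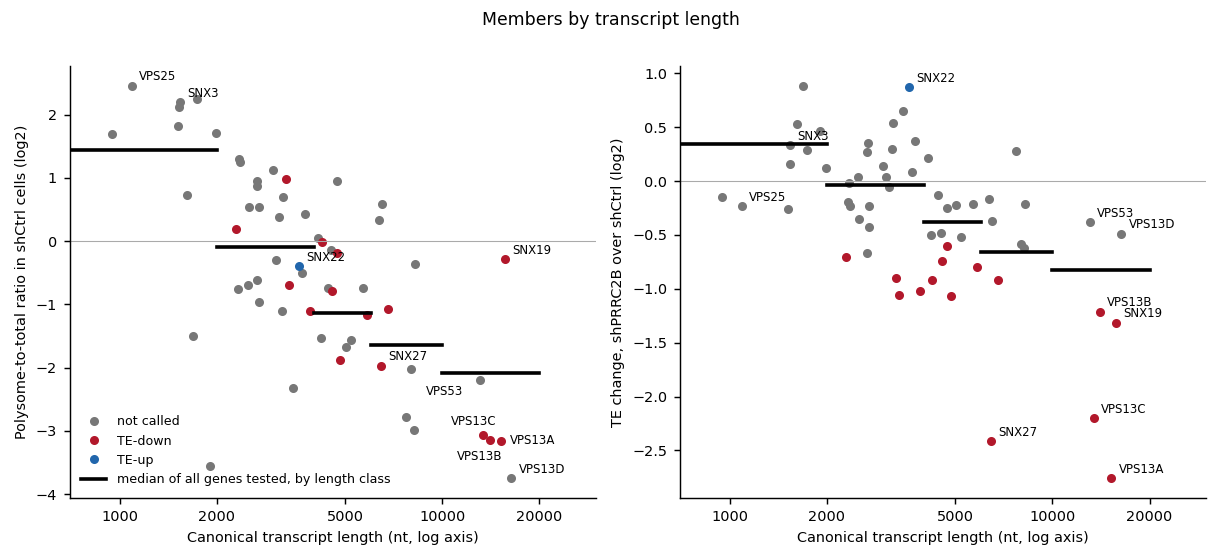
Log2 polysome-to-total ratio in shCtrl cells (left) and log2 TE change (right) of the 60 tested members against the length of the canonical transcript on a log axis; the black bars are the medians of all genes tested in 5 length classes. Both fall with length, and VPS13A, VPS13C and SNX27 lie below the bars of their classes in TE change.

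Several members have a close paralog in the list, and 6 such pairs were set side by side after the values had been seen, so their ratios are descriptions. Their coding sequences, aligned end to end, were 65.7% to 72.7% identical, and the longest run shared was 10 nt for VPS26A and VPS26B, 17 nt for VPS4B and VPS4A and 17 nt for SNX6 and SNX5. The windows of 30 bases around the shared run of 2 pairs are shown from the coding strand, 5′ to 3′, with that run in capitals. They are shown because they hold the longest run found in both coding sequences of the pair.

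VPS4B, coding bases 1180 to 1209: atgacaTGGATGGATGTCCCTGGagataaa
VPS4A, coding bases 1159 to 1188: atgactTGGATGGATGTCCCTGGggacaaa
SNX6, coding bases 905 to 934: aatctcAAGCTGCTAAGGATCTCctgtatc
SNX5, coding bases 902 to 931: acattgAAGCTGCTAAGGATCTCttataca

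Within a library, the ratio of a pair does not depend on how libraries were scaled. There were 0.264 to 0.379 VPS4B counts per VPS4A count in shCtrl total RNA and 0.410 to 0.474 in shPRRC2B total RNA, but 0.138 to 0.263 in shCtrl polysome RNA and 0.104 to 0.118 in shPRRC2B polysome RNA. The ratio was thus higher in total RNA and lower in polysome RNA of shPRRC2B cells, with no overlap in either. SNX6 over SNX5 went the same ways, with 0.302 to 0.321 in shCtrl and 0.397 to 0.462 in shPRRC2B total RNA, and 0.221 to 0.3 in shCtrl and 0.148 to 0.217 in shPRRC2B polysome RNA. SNX12 over SNX3 was 0.701 to 0.741 and 0.762 to 0.826 in total RNA and 0.166 to 0.203 and 0.0840 to 0.115 in polysome RNA, again apart in both. For VPS26A over VPS26B the total RNA groups were apart (0.815 to 0.999 and 1.18 to 1.38) and the polysome groups overlapped (0.992 to 1.53 and 0.648 to 1.25). SNX1 over SNX2 overlapped between the lines in both fractions. VPS37B over VPS37C overlapped in total RNA and was lower in polysome RNA, with 2.01 to 2.50 in shCtrl cells and 1.16 to 1.23 in shPRRC2B cells.

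**Figure D5:**
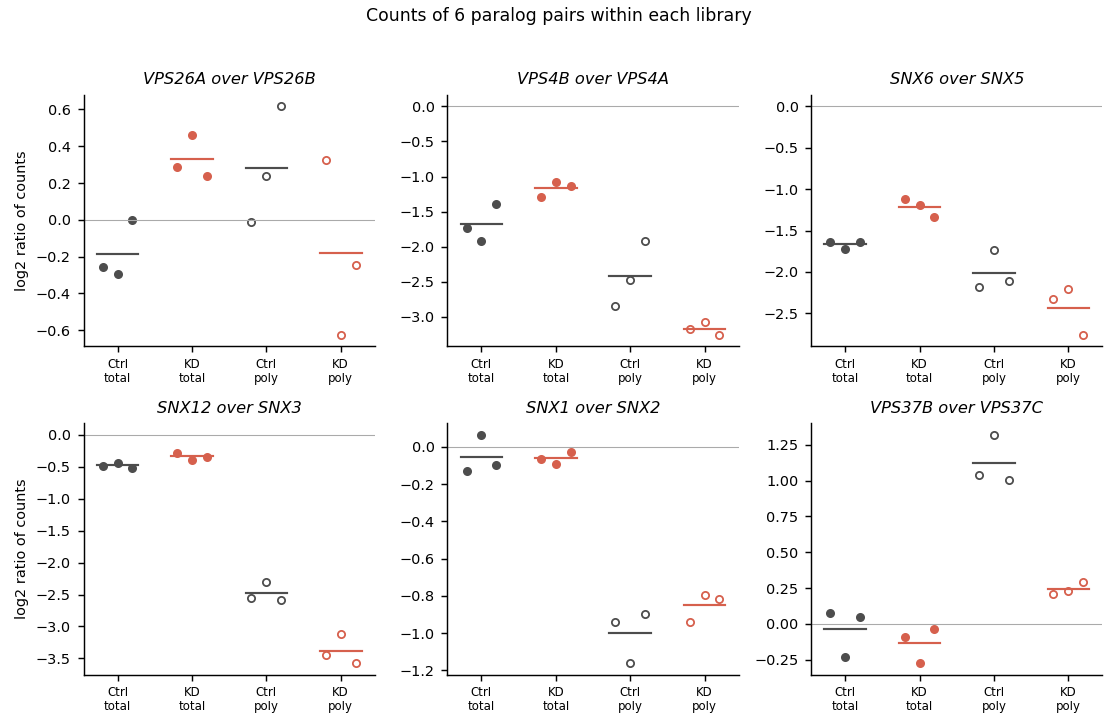
Log2 ratio of the counts of 6 paralog pairs in each library (points) with the mean of the 3 libraries (lines), in total RNA (filled) and polysome RNA (open) of shCtrl cells (Ctrl, grey) and shPRRC2B cells (KD, red). VPS4B over VPS4A moves from a mean of -2.42 to -3.17 in polysome RNA and from -1.68 to -1.17 in total RNA.

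Genes of the same pathways that carry other names were counted beside the members. Of 62 such genes in 5 lists, all tested, 18 were TE-down (29.0%, against 16.4% of all genes tested) and 8 were TE-up (12.9%, against 10.7%), with a median TE change of -0.28. With the length trend removed, 13 were TE-down (21.0%, against 12.6%) and 4 TE-up (6.45%, against 8.72%). The retromer partners and sorting receptors were lowest, with 6 of 10 TE-down and a median of -0.96, and 3 TE-down with the length trend removed. DNAJC13, a chaperone partner of retromer on endosomes, held 10.8, 9.66 and 10.3 CPM in shCtrl and 3.35, 2.48 and 2.57 CPM in shPRRC2B polysome RNA, with a TE change of -1.94 ± 0.21 (SE, adjusted p = 1.81e-05 by edgeR). ANKRD27, which binds VPS29, had the highest value of that list at 0.0035, was not called, and its sign turned in 8 of the 12 fits that left out a library. In the list of endosomal phosphoinositide kinases, 2 of 9 genes were TE-down (22.2%, against 16.4% of all genes tested). TE-up was 1 of them (11.1%, against 10.7%), and there were 2 of each after removal of the length trend. The lowest was PIKFYVE, the lipid kinase of late endosomes, with -1.64 ± 0.23 (SE, adjusted p = 9.44e-05 by edgeR), and the highest BECN1, the beclin subunit of the VPS34 kinase complex, with 0.82 ± 0.17 (SE, adjusted p = 0.0024 by edgeR).

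The WASH complex, which builds actin on retromer tubules, had 3 of 6 genes TE-down (50.0%, against 16.4% of all genes tested). For WASHC2A, WASHC4 and WASHC5, total RNA alone was past the thresholds, with 0.95, 0.78 and 0.62. Their polysome RNA changed by 0.32, -0.12 and 0.01. In total RNA, 5 of the 6 genes were higher (83.3%, against 14.9% of all genes tested) and 1 was lower. Each of the 3 TE-down genes lost the call after correction for length. The calls of WASHC2A and WASHC5 held in 4 and 3 of the 12 fits that left out a library. WASHC4 was lowest with -0.90 ± 0.26 (SE, adjusted p = 0.0174 by edgeR), a call lost without shCtrl total replicate 2 (adjusted p = 0.0527, edgeR) and after correction for length (-0.48, adjusted p = 0.197 by edgeR). WASHC1 was highest with 0.70 ± 0.26 (SE, adjusted p = 0.0562 by edgeR), which was TE-up without shCtrl polysome replicate 1 (0.88, adjusted p = 0.00655, edgeR). It was the lower gene in total RNA (-0.72), and its polysome RNA changed by -0.02. WASHC1 belongs to a family of near-identical subtelomeric copies, and WASHC2A and WASHC2C are near-identical as well, so their counts are uncertain. Of 23 ESCRT genes without a VPS name, 5 were TE-down (21.7%) and 2 TE-up (8.7%), and 7 and 1 with the length trend removed. STAM2, which sorts ubiquitinated cargo at the first step, was lowest with -1.78 ± 0.28 (SE, adjusted p = 0.000228 by edgeR), and SNF8, the partner of VPS25 and VPS36 in ESCRT-II, was highest with 0.72 ± 0.20 (SE, adjusted p = 0.0122 by edgeR), a call lost after correction for length (0.45, adjusted p = 0.101 by edgeR). The Commander list, the assembly around retriever, had 5 TE-up (35.7%, against 10.7% of all genes tested) and 2 TE-down genes (14.3%) of 14. It had 1 of each with the length trend removed. COMMD6 was highest with 1.14 ± 0.19 (SE, adjusted p = 0.000399 by edgeR), and CCDC22 was lowest with -1.04 ± 0.26 (SE, adjusted p = 0.00749 by edgeR).

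Per kilobase of transcript, the members spanned a wide range in shCtrl total RNA. SNX5 was highest at 74.5 CPM per kb, followed by VPS28 (48.1), VPS25 (41.8), SNX3 (41.2), SNX17 (31.6) and VPS29 (29.4), and SNX15 (0.259), SNX19 (0.569) and SNX32 (1.15) were lowest. The retromer subunits held 29.4 (VPS29), 16.3 (VPS35), 14.6 (VPS26B) and 11.1 (VPS26A) CPM per kb, and the VPS13 genes between 2.29 and 6.88.

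The 3 members left untested were VPS52, SNX20 and SNX31. SNX31 had at most 5 counts in any library. SNX20 and VPS52 were listed at 0 in all 12 libraries. VPS52 (chromosome 6, 33250272 to 33272047) lies in a stretch of that chromosome between 28 and 34 Mb where 100 of 192 protein-coding gene names were listed at 0 in every library, against 63 of 815 elsewhere on the chromosome, and its neighbours RING1 and WDR46, which most cells express, were among them. No level of VPS52 is therefore given.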

How the data were processed

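The authors deposited raw read-pair counts per gene name for total and polysome-associated RNA of both lines, made with Trimmomatic 0.36, HISAT2 2.1.0 on GRCh38 and featureCounts of Subread 2.0.1, with the versions of the submitters' processing notes. The gene names were those of GENCODE 38, and genes that share a name are 1 entry. The deposited counts were whole numbers, with 0 columns of no library and between 9855734 and 20837542 counts per library, which bounds the precision for scarce members.

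Groups came from the sample labels. Counts were fitted in R 4.3.3 with edgeR 4.0.16 (filterByExpr with a minimum count of 10, TMM, glmQLFit, glmQLFTest) in 1 model of the 4 groups over all 12 libraries, without a block. The TE change is the interaction of line and fraction. Benjamini-Hochberg adjustment ran over the 18166 genes tested. Calls needed an adjusted p below 0.05 and a log2 change larger than 0.5 in size. CPM are TMM-normalized. Scripts were tested on simulated data. Lengths and sequences came from GENCODE 44 on GRCh38.

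The members and lists were chosen with earlier results of these data known. Named with values were the retromer trimer and its sorting nexins, the VPS13 and VPS4 genes, every other member called in TE, the highest and the lowest gene of each pathway list, and PRRC2B. Other members named with values were chosen after these had been seen.

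Alternatives were DESeq2 1.42.0, DESeq2's size factors (RLE), library totals, TMM within each fraction, no filter on low counts, a block for the replicate number, the same block within each line, limma 3.58.1 on log2(CPM + 1), a lowess trend (span 0.3) on transcript length removed from each library and centred on the median gene, that trend removed with the block, the list without VPS72, and each library left out in turn. In a left-out fit the group of 2 libraries shares the spread of the others. Of the genes tested, 15762 (86.8%) had a length, and the others were left uncorrected where the trend was removed. No interval is given for a share of counts. Within groups, no 2 libraries agreed within sampling noise.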

Additional observations from a re-analysis of the deposited data

Results flagged for a closer look

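For 16 members the polysome-to-total ratio differed between the lines by the interaction of line and fraction (edgeR's quasi-likelihood test, adjusted over all genes tested). Each is given with its log2 ratio of polysome to total RNA in shCtrl and in shPRRC2B cells and the difference.

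In the VPS13 family, the ratio of VPS13A was -3.16 in shCtrl and -5.91 in shPRRC2B cells, a TE change of -2.76. VPS13C moved from -3.07 to -5.27, a difference of -2.20. VPS13B passed from -3.14 to -4.35, a difference of -1.21. In the retromer trimer and its sorting nexins, the ratio of SNX27 was -1.97 in shCtrl and -4.39 in shPRRC2B cells, a TE change of -2.41. VPS35 moved from -1.08 to -1.99, a difference of -0.92. VPS26A passed from -0.02 to -0.94, a difference of -0.92. SNX6 went from 0.98 to 0.08, a difference of -0.90. SNX12 moved from 0.20 to -0.51, a difference of -0.70. In HOPS, CORVET, GARP and the VPS4 genes, the ratio of VPS39 was -1.88 in shCtrl and -2.95 in shPRRC2B cells, a TE change of -1.07. VPS4B moved from -0.69 to -1.74, a difference of -1.06. VPS18 passed from -1.10 to -2.13, a difference of -1.02. VPS41 went from -1.16 to -1.96, a difference of -0.80. VPS33A moved from -0.79 to -1.53, a difference of -0.74. VPS54 passed from -0.18 to -0.79, a difference of -0.61. Among the other sorting nexins, the ratio of SNX19 was -0.29 in shCtrl and -1.6 in shPRRC2B cells, a TE change of -1.32. SNX22 moved from -0.39 to 0.48, a difference of 0.87. 

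The differences in the shPRRC2B line come from 1 clone, and their causes were not tested. Among the 16 members, the calls of VPS33A and VPS54 held in 4 of the 10 alternatives other than left-out libraries and the fewest left-out fits (3 and 7 of 12), while SNX27, SNX6, VPS13A, VPS13C, VPS26A, VPS39 and VPS4B kept the call in all 10 and in all 12 fits that left out a library.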

How the results depend on the processing

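Across the alternatives, the number of TE-down members was 10 to 16 and stayed within 1.5 times of 15, as did the number of members higher in total RNA and the fall of PRRC2B. Counts of members that moved further were small. TE-up members numbered 2 with the length trend removed, with or without the replicate block, and 0 with no filter on low counts. Members lower in total RNA numbered 1 by DESeq2, with RLE size factors and by limma. Members higher in polysome RNA numbered 5 with RLE size factors or library totals and 3 with no filter on low counts. Pathway genes that were TE-up numbered 4 with the length trend removed and 3 with that trend removed with the replicate block, where 11 were TE-down. With single libraries left out, TE-up members ranged from 0 to 2, members lower in total RNA from 0 to 3, and members higher and lower in polysome RNA from 3 to 7 and from 11 to 19. The cause was not tested.

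Reversed signs were confined, among the named genes, to values that were not called. With the length trend removed, and with that trend removed with the replicate block, the TE change was 0.41 and 0.40 for SNX1, 0.13 and 0.13 for SNX2, -0.0869 and -0.0897 for SNX3, 0.26 and 0.26 for VPS13D and -0.26 and -0.25 for VPS29. SNX5 was 0.0519 with TMM within each fraction, 0.0455 with library totals, 0.0108 by limma, 0.0107 with the replicate block within each line and 0.0064 with the replicate block. ANKRD27 was -0.0163 by DESeq2, -0.0154 with RLE size factors and -0.0461 with no filter on low counts. With single libraries left out, SNX5 ranged from -0.21 to 0.0918, VPS26B from -0.18 to 0.15 and ANKRD27 from -0.14 to 0.13.

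No pairing of libraries by replicate number was seen. The 18 correlations of deviations between libraries of the same number lay between -0.06 and 0.05. A library resembled the one of its own number most in 13 of 36 comparisons. A weak pairing could go unseen in these values, which weigh scarce and abundant genes alike. The replicate block left 15 TE-down members and 1 TE-up member, and the block within each line left 13 and 1. Depth limits VPS13A, whose shPRRC2B polysome libraries held 8 to 20 counts, and scarce members such as SNX15 and SNX32. In the same libraries VPS13C held 13 to 19 counts, VPS13B 18 to 29, SNX19 13 to 33 and SNX27 27 to 46.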
